A study of Mus musculus with 6 samples.

Results

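Mitosis and G2/M genes are the genes that a dividing cell uses to enter and complete mitosis. A list of 52 such genes was followed in peritoneal cavity (PC) B1a cells, with members found on the array by symbol. Each member was read through its brightest probe. All 52 had a probe on the array, of the 18256 genes that could be tested 46 were members, and 6 members were too dim to test. B1a cells are innate-like B cells that carry CD5 and renew themselves in the peritoneal cavity.

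The data are 6 one-colour Agilent arrays, 3 of PC B1a cells from p40-/-CD25-/- mice (called knockout) and 3 from p40-/-CD25+/- mice (called control). CD25 is the IL-2 receptor alpha chain, IL-2Rα, and p40 is a subunit shared by IL-12 and IL-23. Both groups lack p40 and the controls still have 1 intact copy of the CD25 gene, so the arrays compare loss of both copies of CD25 with loss of 1, on a p40-deficient C57Bl/6 background. All mice were 7-week-old females, both deletions are in the germline and so in every cell type, and the cells were sorted as B cells carrying CD11b and CD5. The design gives a minimum of 3 mice a sample, without saying how they were pooled or whether any mouse served more than 1 array, so p-values measure the spread between these samples.

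Entry into mitosis is driven by CDK1 bound to cyclin B, which inhibitory kinases hold back until CDC25 phosphatases release it. The spindle then captures chromosomes at their kinetochores, and the spindle checkpoint holds the anaphase-promoting complex until every kinetochore is attached. Most of the genes involved are transcribed late in the cycle by B-Myb and FoxM1 bound to the MuvB core, and are silent in resting cells. In bulk RNA, fewer cycling cells and less of each RNA per cycling cell cannot be told apart.

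Levels are log2 of the processed signal minus the 75th percentile of the same array, so that a level of 0 is the brightness of the 75th percentile. That percentile was 252 to 272 on the control arrays and 66.5 to 162 on the knockout arrays, and 47.2% to 50.6% of spots were well above background on control arrays against 39.7% to 45.9% on knockout arrays. The lowest level still well above background was between -4.55 and -4.09 on the control arrays and between -3.67 and -2.47 on the knockout arrays, highest on knockout 2. A dim gene could therefore pass the detection filter through the control arrays alone, and 14 members did, as did 13.8% of all genes tested. None of the members passed through the knockout arrays alone (0.296% of all genes). The filter thus favours lower knockout readings among those 14 whether or not a member differs, so the 32 members well above background on all 6 arrays are given first and the other 14 apart. All 6 arrays were on 1 slide and in 1 scan, no spot was saturated, and arrays correlated at 0.968 to 0.992 across probes. Il2ra, the gene deleted in the knockout, lay at 1.62, 1.13 and 1.35 in control 1 to 3 and at -0.31, -0.59 and 0.86 in knockout 1 to 3. Its groups did not overlap, with a fitted difference of -1.38 (SE 0.37, adjusted p = 0.122), but no knockout array put its probe below the detection limit, and whether the probe lies in the deleted part is not analysed here. Il12b, the gene for p40, which both groups lack, averaged -2.08 in the knockout and -2.06 in the control. All 6 arrays detected its probe above background, and where that probe lies relative to the deletion is likewise not analysed here.

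Among the 32 members well above background on all 6 arrays, 31 had a fitted difference below 0, where 60.5% of the 15681 genes detected on all arrays did. Their median log2 difference was -0.72, against -0.12 over those 15681 genes. The 3 knockout arrays lay below all 3 control arrays for 17 of the 32, beside a background of 22.7%, and 18 had an unadjusted p of at most 0.05 with lower knockout levels, beside 13.3%. At the thresholds of the study, 2-fold or more and an unadjusted p no higher than 0.05, 6 of the 32 were lower, beside 0.485% of genes, and 0 were higher, beside 2.24%. The 6 were Birc5, Cdca3, Cenpe, Ccna2, Top2a and Bub1b. A single member, Hmmr, lay above the controls on all 3 knockout arrays, a pattern that 15.8% of the genes detected on all arrays shared.

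Over all 46 members tested, 45 had a difference below 0 (60.2% of all genes), 26 did not overlap in the lower direction (21.6%), and 1 did not overlap in the higher direction (14.7%). The unadjusted p was at most 0.05 with lower levels for 28 (13.6%). At the 2-fold thresholds 15 of 46 members were lower, beside 1.27% of all genes, or 232 genes, and 0 were higher, beside 2.26%, or 412 genes. Of the 15, 9 passed the detection filter through the control arrays alone, so the count over the 46 is a description and the 6 of 32 above is the one free of that filter. A difference of at least 2-fold lower, whatever its p, was found for 1.57% of all genes. With quantile normalization the split over all genes was 396 lower and 338 higher, so its balance depends on the scaling, while the members stood at 17 lower and 0 higher. The median of the 46 was -0.83, or -0.72 where members not detected on every knockout array were set to their bound, beside -0.12 over the 18256 genes.

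No member reached an adjusted p under 0.05 over all genes in limma, and the smallest was 0.0771, shared by Ska1, Nuf2 and Top2a. Only 7 genes (0.0383%) did so, with 0 (0%) of them lower in the knockout. The methods' t-test also gave 0 members, limma with a variance trend and robust estimation gave 9 beside 4.13% of all genes, and limma with array weights gave 37 beside 22.9%. For a single gene, 3 arrays against 3 cannot give an exact two-sided permutation p below 0.1. The calls below therefore rest on the 2-fold thresholds with unadjusted p-values.

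**Figure D1:**
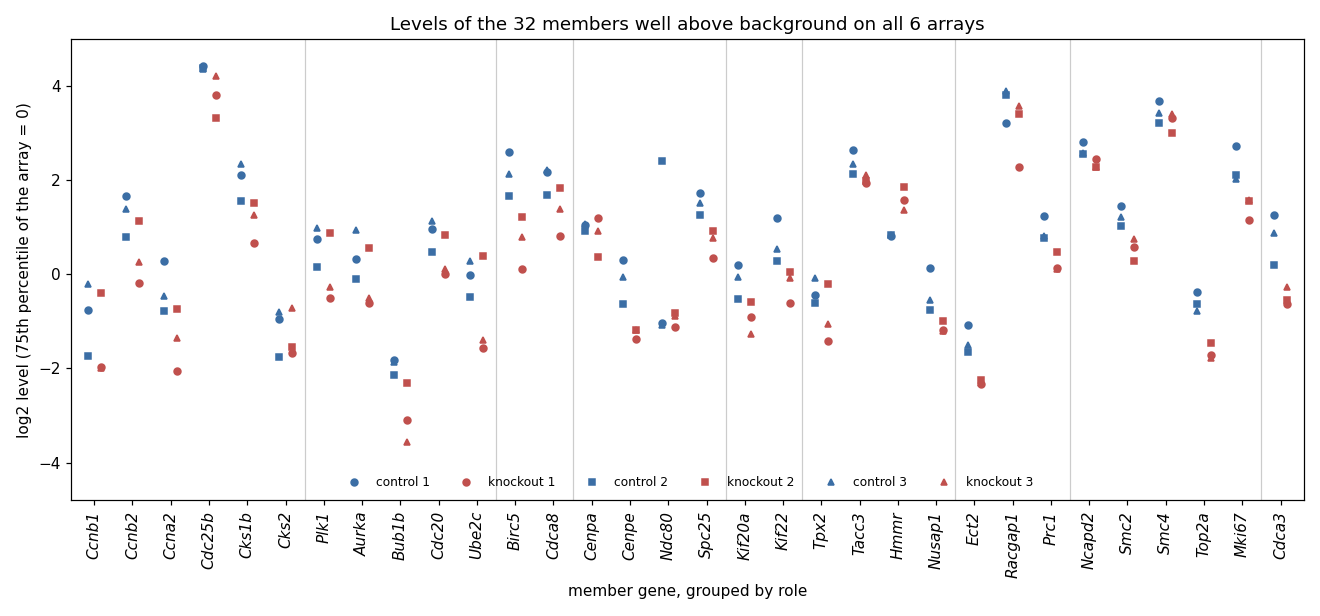
Log2 level of each of the 32 members well above background on all 6 arrays, relative to the 75th percentile of its array. Blue marks are the 3 control arrays and red marks the 3 knockout arrays, each shape is 1 replicate number, and vertical lines separate roles; the red marks lie lower for most genes, Hmmr is the exception, and control 2 stands apart for Ndc80. Levels are to be read within a gene, since probes differ in brightness.

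In the group of CDK1 and its activators, 7 of 8 members were tested, and all 7 had differences below 0. Ccna2 encodes cyclin A2, which partners CDK2 and CDK1 from S phase to early mitosis. Its levels were 0.28, -0.77 and -0.45 in control 1 to 3 and -2.05, -0.75 and -1.36 in knockout 1 to 3. Knockout 2 lay within the controls, and the fitted difference was -1.07 (SE 0.38, adjusted p = 0.159), 2.10-fold lower. Ccnb1 and Ccnb2 encode B-type cyclins, the partners of CDK1 in mitosis. Ccnb1 lay at -0.75, -1.73 and -0.22 in the controls and at -1.96, -0.40 and -1.99 in the knockout, so that its groups overlapped widely (difference -0.55, 95% CI -1.79 to 0.69). Ccnb2 lay at 1.66, 0.79 and 1.39 in the controls and at -0.18, 1.12 and 0.26 in the knockout (difference -0.88, SE 0.37). For both cyclins knockout 1 and 3 were below every control and knockout 2 was not.

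Cks1b and Cks2 encode small adaptor proteins that bind CDKs. Cks1b was lower on every knockout array, at 0.66, 1.50 and 1.26 against 2.11, 1.55 and 2.34 (difference -0.86, SE 0.29), and a separate probe for it gave -0.70. Cks2 showed no such separation, with a difference of -0.14 (95% CI -0.94 to 0.65). Cdc25b, a phosphatase that activates CDK1, lay between 4.36 and 4.42 in the controls and at 3.80, 3.31 and 4.21 in the knockout, where all 3 arrays were below the controls (difference -0.61, SE 0.23). Without knockout 2 its difference was -0.38. Cdc25c, a second such phosphatase, was above background on no array. Cdk1 itself, the kinase of mitotic entry, was well above background on the 3 control arrays, at -2.00, -2.88 and -2.18, and on no knockout array, where its probe read -4.93, -3.00 and -3.96. It was called lower, at least 1.81-fold. Here and below, at least marks a bound set by the floor of each array in this scaling, not a strict limit. The other 2 Cdk1 probes, 1 of which shares 41 bases with the tested probe, were above background on no array, so the readout rests on 1 of 3 probes.

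Among the mitotic kinases and checkpoint genes, 7 of 8 were tested and all 7 differences were below 0. Bub1b encodes BubR1, the checkpoint protein that holds back the anaphase-promoting complex. It lay at -1.81, -2.13 and -1.86 in the controls and at -3.10, -2.30 and -3.57 in the knockout, with no overlap (difference -1.06, SE 0.31, adjusted p = 0.130). Its reading lies low on the array, and with the normexp background correction and 75th percentile scaling the difference was 0.00. Plk1 and Aurka encode the kinases that drive centrosome maturation and spindle assembly. Plk1 lay at 0.76, 0.16 and 0.97 in the controls and at -0.51, 0.89 and -0.28 in the knockout. Aurka lay at 0.33, -0.11 and 0.94 in the controls and at -0.62, 0.56 and -0.50 in the knockout. The differences were -0.60 (95% CI -1.51 to 0.32) and -0.58 (95% CI -1.47 to 0.32), neither distinguishable from 0 at this spread.

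Cdc20 encodes the activator of the anaphase-promoting complex and Ube2c the ubiquitin-conjugating enzyme that works with it. Cdc20 levels were 0.95, 0.47 and 1.12 against 0.01, 0.83 and 0.11 in knockout 1 to 3. Ube2c levels were -0.02, -0.49 and 0.27 against -1.56, 0.39 and -1.40. In both, knockout 2 was inside or above the control range while knockout 1 and 3 lay below it. Melk, a kinase abundant in proliferating cells, was above background on 1 of 3 knockout arrays and was called lower, at least 1.77-fold. The checkpoint kinase gene Bub1 was above background on 2 knockout arrays and was not called, with groups that overlapped. Ttk, which encodes the checkpoint kinase MPS1, was above background on no array.

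The chromosomal passenger complex corrects faulty attachments and directs cytokinesis. Birc5 encodes its subunit survivin, and had the largest difference of the 32 members detected on every array. The probe lies at chr11:117716978-117717037 in mm9, and read 2.59, 1.66 and 2.14 in the controls and 0.12, 1.21 and 0.78 in the knockout. No knockout array reached the lowest control, and the difference was -1.43 (SE 0.33, adjusted p = 0.106), 2.69-fold lower. Its 3 probes, which do not share sequence, gave -1.50 to -0.91. The probe that gave -1.50 was above background on 1 knockout array only. Across the settings run the Birc5 difference was between -1.80 and -1.13. Cdca8, which encodes borealin, lay at 2.17, 1.69 and 2.22 against 0.82, 1.83 and 1.40, and knockout 2 overlapped the controls (difference -0.67, SE 0.28). Aurkb, the kinase of the complex, was above background on no array.

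At kinetochores and centromeres, 6 of 7 members were tested and all 6 differences were below 0. Cenpe encodes a kinesin that moves chromosomes to the spindle equator. Its levels were 0.30, -0.62 and -0.05 in the controls and -1.36, -1.18 and -1.18 in the knockout. The knockout arrays lay close together and below every control (difference -1.12, SE 0.24, adjusted p = 0.104), 2.17-fold lower. Spc25, a subunit of the NDC80 complex that grips microtubules, lay at 1.72, 1.26 and 1.51 against 0.35, 0.91 and 0.78, again without overlap (difference -0.81, SE 0.20).

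Ndc80 itself shows how a single array can carry a value. It read -1.04, 2.40 and -1.08 in the controls and -1.12, -0.82 and -0.88 in the knockout. Its difference of -1.03 (SE 0.87) comes from control 2, and without that array it was 0.12. Cenpa encodes the histone variant that marks centromeres, and lay between 0.92 and 1.07 in the controls and at 1.20, 0.37 and 0.92 in the knockout. Its difference of -0.18 became 0.05 without knockout 2. Nuf2, another NDC80 complex subunit, and Ska1, which helps kinetochores follow microtubules, were above background on all control arrays and on no knockout array. Nuf2 was called at least 1.27-fold lower and Ska1 at least 2.15-fold lower. With the normexp correction and 75th percentile scaling their differences were 0.27 and 0.10. Cenpf, a kinetochore protein gene used as a G2/M marker, was above background on no array.

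Mitotic kinesins are motors that build the spindle and position chromosomes. Of 6 members 5 were tested and all 5 differences were below 0, but only 2 were detected on every array. Kif22, a motor that rides on chromosome arms, lay at 1.20, 0.28 and 0.55 in the controls and at -0.61, 0.04 and -0.08 in the knockout (difference -0.89, SE 0.28). Kif20a, which works in cytokinesis, lay at 0.19, -0.52 and -0.07 against -0.91, -0.58 and -1.27 (difference -0.79, SE 0.25). Both lacked overlap and stayed short of 2-fold. Kif11, the motor that separates spindle poles, was on no knockout array above background and was called at least 1.64-fold lower. Kif4, a chromosome-bound motor, was called lower, but its bound gives no fold, since the mean of the knockout floors, raised by knockout 2, lies above its control mean. Kif23, the central spindle motor, was above background on 2 knockout arrays and was not called. Kif2c, which depolymerizes microtubules, was above background on 2 control arrays and was not tested.

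Of the spindle assembly genes 6 of 7 were tested, 5 had a difference below 0 and 0 were called. Tpx2, which activates Aurora A on the spindle, lay at -0.44, -0.61 and -0.08 against -1.42, -0.22 and -1.06, with knockout 2 inside the controls. Nusap1, which bundles spindle microtubules, lay at 0.14, -0.76 and -0.54 against -1.18, -0.98 and -1.20 (difference -0.73, SE 0.24), without overlap. Tacc3, which stabilizes spindle fibres, had knockout levels of 1.94, 1.97 and 2.10, all below the lowest control of 2.14, and a small difference of -0.37 (95% CI -0.77 to 0.03). Dlgap5 and Ckap2, both microtubule-associated, were detected on every control array and on 0 and 1 knockout arrays, with no bound above 1. Gtse1, a G2 gene that restrains p53, was above background on 1 control array and was not tested.

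Hmmr encodes RHAMM, a hyaluronan receptor that also binds spindle microtubules. It was the 1 member of 46 with a difference above 0. The probe, at chr11:40515324-40515383 in mm9, read 0.81, 0.84 and 0.83 in the controls and 1.58, 1.85 and 1.36 in the knockout. The controls lay within a few hundredths of each other and every knockout array above them. The difference was 0.76 (SE 0.16, unadjusted p = 0.0021, adjusted p = 0.104), 1.70-fold higher and short of the 2-fold threshold. It was above 0 in all settings run, between 0.52 and 0.88. It rests on a single probe.

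Of the cytokinesis genes all 4 were tested and all 4 differences were below 0. Ect2 activates RhoA to form the contractile ring. Its levels were -1.07, -1.64 and -1.50 in the controls and -2.32, -2.25 and -2.30 in the knockout, a tight group below every control (difference -0.89, SE 0.18, adjusted p = 0.096). With the normexp correction and 75th percentile scaling the difference was -0.03. Prc1, which cross-links the central spindle, lay at 1.25, 0.76 and 0.82 against 0.13, 0.46 and 0.12, also without overlap (difference -0.71, SE 0.19). Racgap1, the partner of Ect2, lay at 3.21, 3.80 and 3.89 against 2.27, 3.39 and 3.57, where the groups overlapped. Anln, which encodes the ring scaffold anillin, was above background on 2 knockout arrays and was called at least 2.27-fold lower, although its groups overlapped.

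All 6 genes of condensin and chromosome structure were tested, and 5 of them did not overlap, in the lower direction, beside 21.6% of all genes. Top2a encodes the topoisomerase that untangles sister chromatids. Its probe, at chr11:98855522-98855581 in mm9, read -0.37, -0.64 and -0.77 in the controls and -1.71, -1.47 and -1.77 in the knockout. The gap between the groups exceeded the range within either, and the difference was -1.06 (SE 0.17, adjusted p = 0.0771), 2.08-fold lower. Across the settings run it was between -1.17 and -0.35, smallest with the normexp correction and 75th percentile scaling. Mki67 encodes Ki-67, the protein most used to mark cycling cells, which coats mitotic chromosomes. Its probe lies at chr7:142881591-142881650 in mm9, and read 2.72, 2.12 and 2.02 in the controls and 1.16, 1.55 and 1.58 in the knockout. Every knockout array was below every control, with a difference of -0.85 (SE 0.23, adjusted p = 0.122), 1.81-fold lower and so not called. A second Mki67 probe gave -0.69, and over all settings the difference was between -0.99 and -0.60.

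The condensin core subunit Smc2 lay at 1.45, 1.02 and 1.21 against 0.59, 0.29 and 0.74 (difference -0.69, SE 0.18), without overlap. Its partner Smc4 lay at 3.68, 3.20 and 3.42 against 3.31, 3.00 and 3.40, with overlap and a difference of -0.20 (95% CI -0.64 to 0.24). Ncapd2, a condensin I subunit, differed by -0.31 (95% CI -0.66 to 0.03). Ncapg2, a condensin II subunit, was above background on 2 knockout arrays and was called at least 1.97-fold lower. The 2 core subunits of one complex thus had different values, and the difference between them was not tested.

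Of the regulators, Foxm1 encodes a transcription factor of G2/M genes, and its groups overlapped, at -1.95, -2.15 and -2.40 against -3.33, -1.90 and -2.25. Knockout 1 alone lay below the controls and was not well above background. Cdca3, which encodes a trigger of WEE1 degradation at mitotic entry, lay at 1.26, 0.20 and 0.88 against -0.63, -0.55 and -0.27 (difference -1.26, SE 0.27, adjusted p = 0.105), 2.40-fold lower. All knockout arrays were below the controls, with knockout 2 among them. Mxd3, a MAX-binding repressor expressed in proliferating cells, was above background on no knockout array and was called at least 1.40-fold lower.

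**Figure D2:**
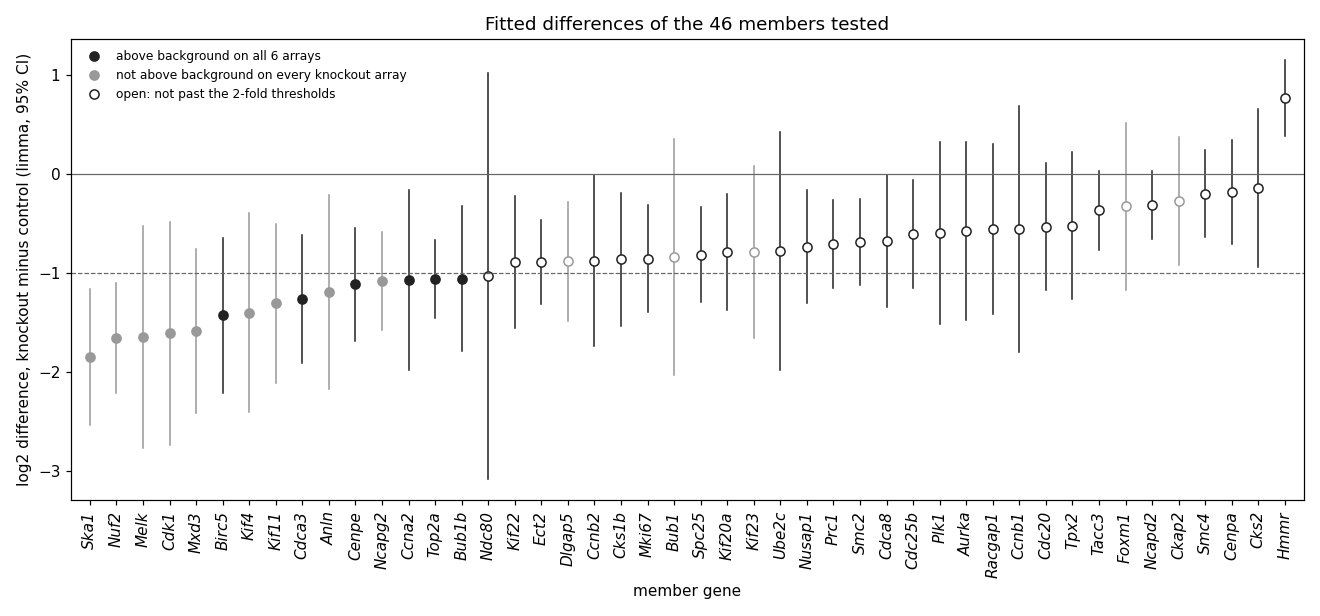
Fitted log2 difference, knockout minus control, of the 46 members tested, with 95% confidence intervals from limma, ordered by size. Filled points are past the 2-fold thresholds (15 members), grey marks members not above background on every knockout array, the dashed line is 2-fold lower, and Hmmr alone lies above 0. Grey points are fitted values of dim probes and not measured folds.

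In all, 9 of the 15 called members (Cdk1, Melk, Nuf2, Ska1, Kif11, Kif4, Anln, Ncapg2 and Mxd3) were bounded in this way, and 2 of them, Ska1 and Anln, had a bound of at least 2-fold. The bound sets the control mean against, on each knockout array, the higher of the probe's own value and the lowest level well above background there. It is not a strict limit, since a probe can lie above that level and still not be well above background. On knockout 1 Foxm1 did so, at -3.33 where the lowest such level was -3.50. With the normexp correction and 75th percentile scaling, the differences of Cdk1, Melk, Nuf2, Ska1, Kif11, Kif4 and Mxd3 lay between 0.02 and 0.38. Those of Anln and Ncapg2 were -0.09 and -0.10.

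The calls differed in how many processing settings kept them. Of the 6 members detected on all arrays, Birc5 was called lower in 19 of 19 settings, Cdca3 in 17, Cenpe in 16, Top2a in 14, Bub1b in 13 and Ccna2 in 11. The call of Ccna2 thus rests more on the settings used than that of Birc5. The 9 bounded members entered the test through the control arrays, and the filter that asks for detection on every array removes them. In the other 18 settings Nuf2, Ska1 and Mxd3 were called in 16, Cdk1, Melk and Kif11 in 15, Kif4 in 14, Ncapg2 in 12 and Anln in 10. These counts carry the same filter, apart from the setting without one. Anln was not called with either normexp correction, with the methods' t-test, with a replicate block, or when control 1, control 3, knockout 1 or knockout 3 was left out (differences -1.12, -1.06, -1.13 and -0.80). Leaving out control 1 also ended the calls of Bub1b, Ccna2, Cenpe, Top2a, Kif11 and Ncapg2, which then lay between -0.995 and -0.77. Without knockout 3, Bub1b (-0.77), Ccna2 (-1.08) and Top2a (-0.997) were not called. Without knockout 1, Ccna2 (-0.74) and Kif4 (-0.97) were not, and without knockout 2, Ncapg2 (-0.96) was not.

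The 3 knockout arrays did not carry the difference equally. Of the 32 members detected on all arrays, 28 lay below every control on knockout 1, 27 on knockout 3 and 19 on knockout 2, where 41.9%, 35.2% and 49.6% of the genes detected on all arrays did. The medians of the members minus the control mean were -1.09, -0.79 and -0.44 on knockout 1, 3 and 2, and those of the genes detected on all arrays were -0.09, -0.06 and -0.18. Knockout 2 was thus the highest of the knockout arrays for the members and the lowest for those genes. Knockout 2 is also the dimmest array, with a 75th percentile of 66.5, and control 2 was the lowest control for 26 of the 32, as it was for 43.3% of genes. For 9 of the 32 members knockout 1 and 3 were below every control and knockout 2 was not, a pattern that 3.30% of the genes detected on all arrays shared. These were Ccnb1, Ccnb2, Ccna2, Plk1, Aurka, Cdc20, Ube2c, Cdca8 and Tpx2, which include both B-type cyclins, the anaphase-promoting complex activator and its enzyme, and the kinases Plk1 and Aurora A with the activator of the latter. For 17 others, among them Mki67, Top2a, Birc5, Cenpe, Ect2 and Cdca3, all 3 knockout arrays were below every control. Ube2c on knockout 2 lay 0.47 above the control mean, and Ccnb1 0.50 above it, where the mean of knockout 1 and 3 lay at -1.40 and -1.08. The split was seen in these values and was not tested, and the part of the array's brightness in it was not tested.

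**Figure D3:**
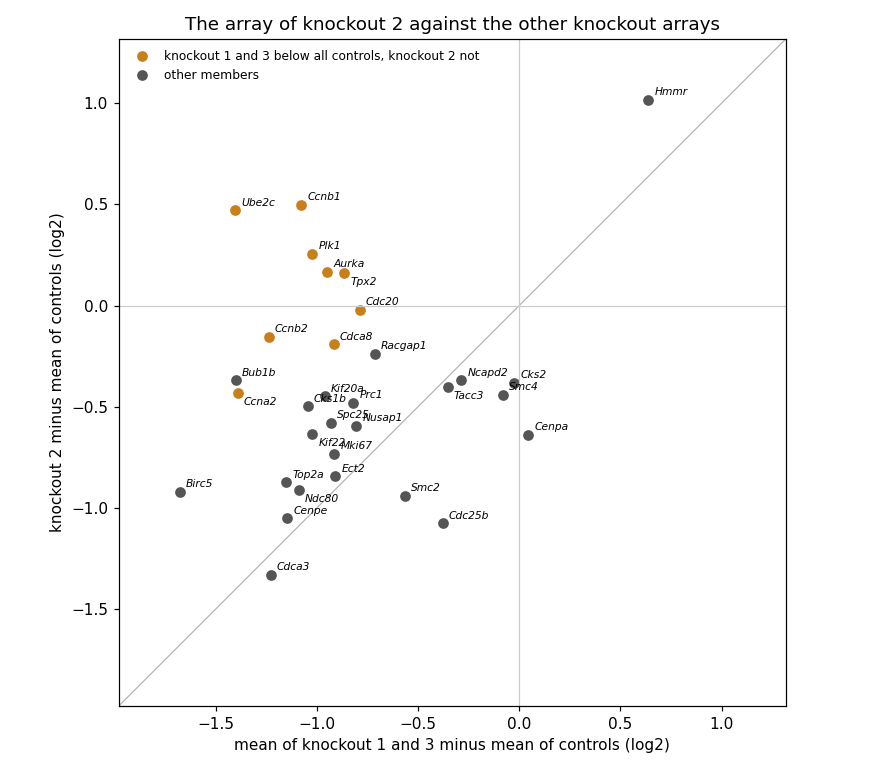
Each point is 1 of the 32 members detected on all arrays, with the mean of knockout 1 and 3 minus the control mean on the horizontal axis and knockout 2 minus the control mean on the vertical axis, both in log2 units. The diagonal marks equal values; the 9 orange members lie between -0.43 and 0.50 on knockout 2, and Birc5, Cenpe and Cdca3 are low on both axes.

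Without knockout 2 12 of 32 and 23 of 46 members were called lower, with medians of -0.92 and -1.02, beside 0.695% of the genes detected on all arrays and 1.57% of all genes. Without control 1 the calls were 2 of 32 and 8 of 46, beside 0.593% and 1.40%. Without control 2 they were 10 of 32 and 21 of 46, beside 0.542% and 1.28%. Without knockout 3 they were 3 of 32 and 11 of 46, beside 0.861% and 1.90%. In each case at least 30 of the 32 kept a difference below 0.

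The start sites of the members can be read for the elements that late cell cycle genes are known for. The cell cycle genes homology region (CHR) is bound by MuvB complexes, and CCAAT boxes by NF-Y. RefSeq promoters (GRCm38.p6, from 250 bases before to 50 after the start) were found for 43 of 52 members, as 46 promoters, and searched on both strands for TTTGAA (CHR) and CCAAT, where matches can share bases and each was counted. A CHR match was present in 71.7% of the 46 and in 17.9% of all 32851 promoters. CCAAT was present in 78.3% and 37.4%, and both in 63.0% and 6.95%. Among the other G2/M genes 50% had a CHR match, and among DNA replication and S phase genes 9.76%. Members called lower had a CHR match in 61.5% of 13 promoters and members tested but not called in 78.6% of 28. CCAAT was present in 53.8% and 89.3% of these, and both in 46.2% and 75%. These differences were not tested. Of the 15 members called lower, 9 passed the detection filter through the control arrays alone, so the split carries that filter. Birc5, Melk, Mxd3, Nuf2, Nusap1 and Tacc3 had neither match in this window. A match is letters only and not a bound site. The stretches below run 5′ to 3′ from 200 bases before the start to 20 after it, with CHR and CCAAT matches on either strand in capitals. Mki67 and Top2a are shown as proliferation markers lower on every knockout array, Cdk1 as the kinase of mitotic entry, Cdc20 as a member that knockout 2 does not share, and Hmmr as the member that was higher. They lie on the minus strand at chr7:135716360-135716579, chr11:99024170-99024389, chr10:69352893-69353112, chr4:118437324-118437543 and chr11:40733418-40733637.
Mki67: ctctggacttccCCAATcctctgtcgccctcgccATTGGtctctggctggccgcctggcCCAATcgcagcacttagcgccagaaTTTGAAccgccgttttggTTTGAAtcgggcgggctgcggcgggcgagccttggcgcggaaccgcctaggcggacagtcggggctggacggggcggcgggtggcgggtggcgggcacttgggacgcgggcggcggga
Top2a: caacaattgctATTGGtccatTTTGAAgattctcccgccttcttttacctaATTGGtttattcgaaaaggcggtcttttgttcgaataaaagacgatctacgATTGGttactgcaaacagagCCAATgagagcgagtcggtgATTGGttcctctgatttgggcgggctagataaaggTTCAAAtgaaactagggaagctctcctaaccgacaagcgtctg
Cdk1: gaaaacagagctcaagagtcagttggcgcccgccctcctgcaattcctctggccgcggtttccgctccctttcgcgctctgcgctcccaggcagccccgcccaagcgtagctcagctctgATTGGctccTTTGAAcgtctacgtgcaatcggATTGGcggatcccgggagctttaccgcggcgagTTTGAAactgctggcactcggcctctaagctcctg
Cdc20: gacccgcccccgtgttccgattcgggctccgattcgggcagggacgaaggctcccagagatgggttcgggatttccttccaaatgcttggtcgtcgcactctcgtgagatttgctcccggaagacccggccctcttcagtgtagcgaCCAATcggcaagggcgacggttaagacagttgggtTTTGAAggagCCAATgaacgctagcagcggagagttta
Hmmr: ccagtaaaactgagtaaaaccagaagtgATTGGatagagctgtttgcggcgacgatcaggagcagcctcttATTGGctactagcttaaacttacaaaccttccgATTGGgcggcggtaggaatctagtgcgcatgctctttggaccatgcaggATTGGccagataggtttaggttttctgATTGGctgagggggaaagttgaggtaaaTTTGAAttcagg
Cdc20, whose levels split between knockout arrays, and Mki67, whose levels do not, both hold the 2 elements. Hmmr, the higher member, has 5 CCAAT matches and 1 CHR match in the stretch shown, and Top2a has 5 and 2. Among the promoters shown, both kinds of match were thus present in the higher member and in members that were lower. Of the 13 promoters of members called lower, 30.8% held neither. Whether the matches go with the direction was not tested.

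Genes beyond the members were counted from separate lists. Of 72 other G2/M genes 55 were tested, 49 had a difference below 0 (60.2% of all genes), and 5 were called lower (1.27%) and 0 higher (2.26%), with a median of -0.46. Stmn1, which encodes the microtubule destabilizer stathmin, was the 1 of these 5 detected on all arrays, at 4.06, 3.35 and 3.69 against 1.86, 2.68 and 2.49 (difference -1.36, SE 0.27, adjusted p = 0.096). Shcbp1, a midbody protein gene, was at least 2.71-fold lower, Cenpn and Depdc1b at least 1.32-fold and 1.33-fold lower, and Ckap2l had no bound above 1. Cdc27, a subunit of the anaphase-promoting complex, lay at 0.50, 0.31 and 0.49 against 1.13, 1.18 and 0.97. Like Hmmr it was higher on every knockout array (difference 0.66, SE 0.14) and was not called. E2f7, an atypical E2F repressor, also had a difference above 0 (0.48) and was not called. These 2 genes, like Wee1 and Mybl2 below, were singled out after their values were seen.

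DNA replication and S phase genes had 46 of 48 tested, 43 below 0 (60.2% of all genes) and 27 without overlap in the lower direction (21.6%), with a median of -0.48. Rrm2, the regulated subunit of ribonucleotide reductase, was called lower, at 2.55, 1.44 and 1.48 against 0.34, 1.03 and 0.90. Cdc6, which loads the replicative helicase, was called at least 1.22-fold lower. Over the 42 genes of the list detected on all arrays, the median minus the control mean lay between -0.46 and -0.41 on the knockout arrays, and over the 32 such members between -1.09 and -0.44. The difference between the lists was not tested. The 12 genes of the inhibitory kinases and the MuvB-B-Myb complex gave 0 calls, beside 1.27% of all genes lower and 2.26% higher. Of the 12, 1 had lower levels at an unadjusted p of at most 0.05, beside 13.6% of all genes, and the median was -0.24. Wee1, the kinase that inhibits CDK1, lay at 0.70, 1.95 and 1.65 against 0.21, 1.90 and 2.25, and Mybl2, which encodes B-Myb, at 0.70, 0.47 and 1.64 against 0.00, 1.38 and -0.14. Both overlapped widely.

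Markers of other cells were read on the same arrays. The B cell list, with Cd5 and Itgam (which encodes CD11b) among its genes, had 11 genes tested, 0 called and a median of -0.02, and all 11 were well above background on every array. Of these, 0 were lower without overlap, and 3 (Itgam, Bhlhe41 and Cd79b) were higher on every knockout array than on every control, beside 14.7% of all genes. Itgam lay at 4.37, 4.21 and 4.05 in the controls and at 4.73, 5.86 and 4.40 in the knockout (difference 0.79, adjusted p = 0.214) and was not called. Of the 12 macrophage genes tested all had differences below 0 (60.2% of all genes), and 3 (Lyz2, Mrc1 and Retnla) were called lower (1.27%). Their summed level ran from 6.81 to 7.58 in the controls and from 6.57 to 6.99 in the knockout. Of 11 T cell markers 7 were tested, with 2 (Cd3d and Thy1) called higher (2.26% of all genes) and a median of 0.60, and a summed level of 3.18 to 3.90 in the controls and 3.78 to 4.08 in the knockout. Cd8a and Cd8b1 were above background on no control array and on 1 knockout array each. Plasma cell markers had 5 tested, all 5 with differences below 0 (60.2% of all genes), 2 of them (Igj and Xbp1) without overlap (21.6%), and 1, Igj, called lower (1.27%). Their median was -0.52, and their summed level ran from 6.10 to 6.24 in the controls and from 5.54 to 5.89 in the knockout. NK and granulocyte and mast cell markers had 2 and 4 tested and 0 called. Gzma, detected on 2 control and 3 knockout arrays, overlapped between the groups and was not called (difference 1.44, 95% CI -0.20 to 3.08, adjusted p = 0.233), and Prf1 differed by 0.15. Eomes and Gzmb were above background on 1 knockout array each and on no control array, and Klrb1c, Klrk1 and Ncr1 on no array. Mcpt4 and Cpa3, of the mast cell genes, also overlapped and were not called, with differences of -2.01 (95% CI -4.04 to 0.02) and -1.27 (95% CI -3.00 to 0.45). B2 cell markers had 4 tested and 0 called. The part of these cells in the difference of the members was not tested.

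**Figure D4:**
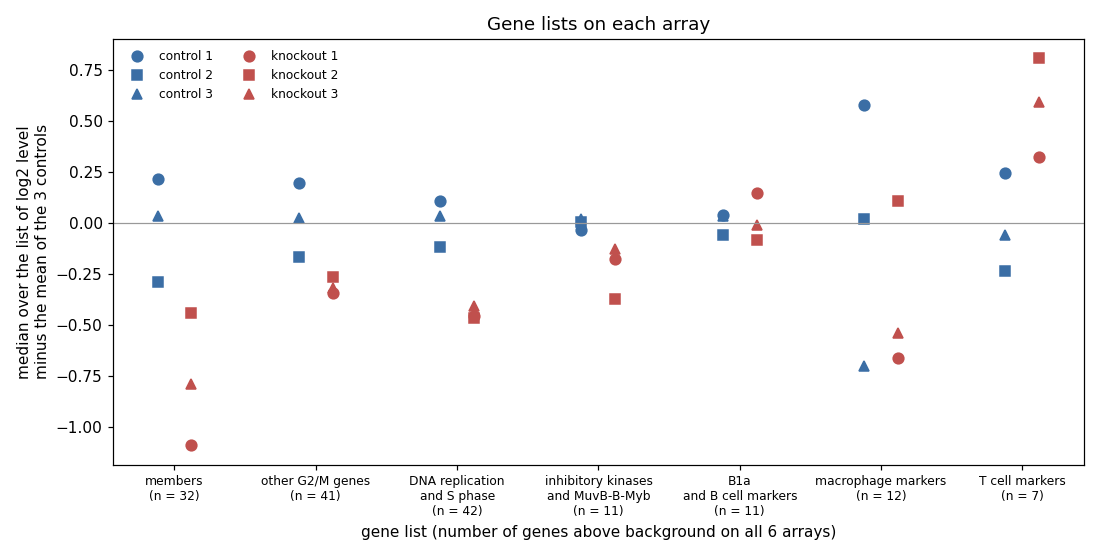
Median over each gene list of the log2 level minus the mean of the 3 controls, per array, over the genes of the list detected on all 6 arrays, whose number stands below each list. Blue marks are controls and red marks knockout arrays; the members spread from -1.09 to -0.44 on the knockout arrays, the S phase list sits between -0.46 and -0.41 on all 3, and B cell markers lie between -0.08 and 0.15.

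How far the member median moves with processing was followed for the 32 members detected on all arrays. It was below the median of all genes in every setting run, by between 0.44 and 1.12 log2 units, and least with the normexp correction. Without a filter on dim probes the median of all genes was 0.40, and the distance of 1.12 belongs to that setting. There 2 of 52 members were called higher, beside 28.7% of all genes.

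**Figure D5:**
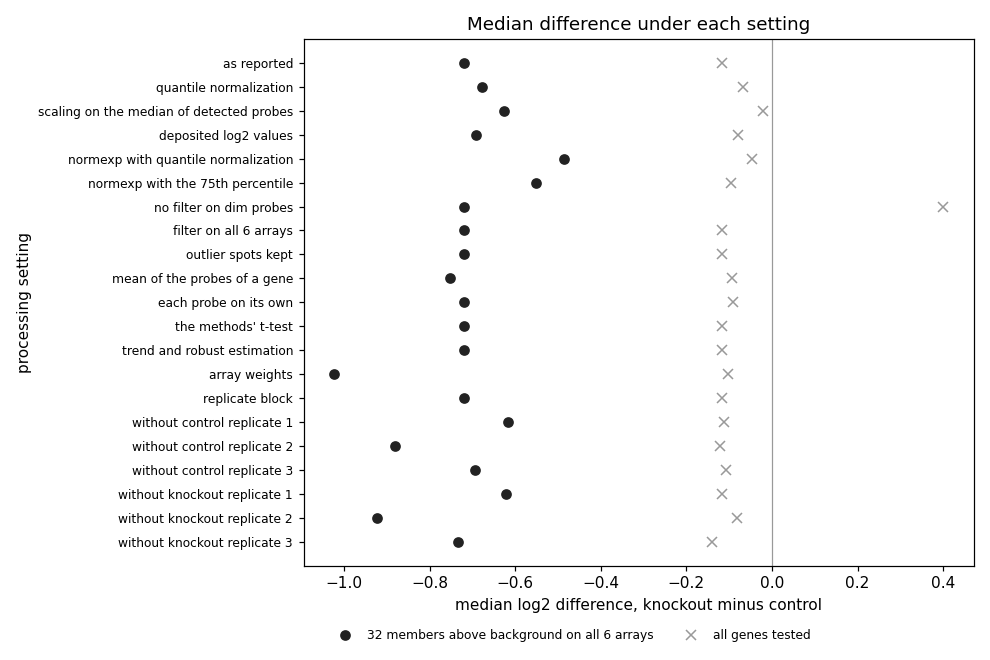
Median log2 difference, knockout minus control, of the 32 members detected on all arrays (filled circles) and of all genes tested (crosses) under each processing setting. The members' medians lie between -1.02 and -0.49, and in each setting left of the cross.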

How the data were processed

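RNA of sorted PC B1a cells was labelled with Cy3 and hybridized to Agilent arrays, and the authors read the images with Feature Extraction 10.7.1.1, per the labels. The deposited intensity values are that software's processed signals, with background removed but no scaling between arrays, and probe positions are in mm9. The authors also deposited a table of log2 values, which was used as an alternative. Each of its columns followed the ranks of its own array (rank correlation 1) and had a median of 3.16, and the sorted columns differed by at most 0.000545 at any rank, as after quantile normalization. Their centring is otherwise not stated.

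Here log2 of the processed signal was taken for 59305 non-control spots (55681 probes) and the 75th percentile of the array subtracted. Outlier spots (163 to 251 an array) were left out and spots of a probe averaged. A probe was tested if well above background on all 3 arrays of either genotype, which gave 24757 probes, and each gene took its brightest tested probe (18256 genes). Gene symbols come from the array files. The comparison of genotypes used limma 3.58.1 (lmFit, eBayes; R 4.3.3) with no covariate, and Benjamini-Hochberg adjustment ran over all genes. Calls use the thresholds of the study, 2-fold and an unadjusted p of at most 0.05. Folds of members not detected on every array of a group were set by the lowest level well above background, and are not strict limits. Motifs were counted in Python 3.11.15. The fit was tested on simulated data. Named members are those past the thresholds, Mki67 and those above 0, and the other members are described by role. Members and lists were chosen with earlier results of these data known. Alternatives were other scalings, background corrections, filters, probe rules and estimators, a replicate block, and leaving out each array. The array number limits the precision.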

Additional observations from a re-analysis of the deposited data

How the results depend on the processing

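As reported, 15 of 46 members were called lower, with a median of -0.83 and 0 at an adjusted p under 0.05, and over all genes 232 were called lower and 7 had such an adjusted p. With quantile normalization the counts over all genes were 396 and 23, and with the deposited log2 values 404 and 22, while 17 members were lower in both. Scaling on the median of detected probes gave 11 members, and 172 and 7 over all genes. The normexp correction with quantile normalization left 1 member lower with a median of -0.46, and 31 and 13 over all genes. Normexp with 75th percentile scaling left 1 member lower with a median of -0.40, 31 of 46 members below 0, 18 members at an adjusted p under 0.05, and 89 and 6486 over all genes. There the called members Cdk1 (0.084), Bub1b (0.0035), Melk (0.024), Nuf2 (0.27), Ska1 (0.10), Kif11 (0.22), Kif4 (0.38) and Mxd3 (0.21) turned above 0; of these, Bub1b alone was detected on every knockout array. The 1 member called lower in both normexp settings was Birc5.

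Without a filter 2 members, Aurkb and Cenpf, neither above background on any array, were called higher, as were 28.7% of the 36163 genes, and 2 genes had an adjusted p under 0.05. A filter on all 6 arrays left 6 members, and 77 and 27 over all genes. The methods' t-test gave 9 members, 147 genes and 2 genes. Trend and robust estimation gave 9 members and 754 genes at an adjusted p under 0.05. Array weights, lowest for knockout 2 at 0.25, gave 27 members lower, 37 at an adjusted p under 0.05, and 460 and 4189 over all genes. Averaging probes and testing each probe gave 11 and 20 genes at an adjusted p under 0.05. Leaving out 1 array at a time gave 8 to 23 members lower, 0 to 1 member at an adjusted p under 0.05, a median between -1.02 and -0.67, and 233 to 346 and 2 to 92 over all genes. A replicate block gave 13 members lower, a median of -0.83 and 4 genes at an adjusted p under 0.05. Deviations of same-numbered arrays correlated at 0.19, 0.06 and 0.09, with no reference set beside these values. The labels give replicate numbers only, so whether the numbers pair the samples is not known. The slide could not be a block, since there is 1. The cause of these changes was not tested. Dim knockout arrays limit the 14 members not detected on all of them.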
